A study of Rattus norvegicus with 12 samples.

Results

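Transcripts of 10 genes of the collagenous extracellular matrix and of the non-muscle cells that make it were followed through a Cpeb4 immunoprecipitation from cultured rat heart cells. The 10 genes, out of 32883 in the count table, were taken by Ensembl identifier as a gauge of fibroblast content in each culture. The list sets no threshold on a measured value, but it was drawn up with earlier results of these data known. They are Col1a1 (ENSRNOG00000003897), Col1a2 (ENSRNOG00000011292), Col3a1 (ENSRNOG00000003357), Fn1 (ENSRNOG00000014288), Sparc (ENSRNOG00000012840), Postn (ENSRNOG00000012660), Dcn (ENSRNOG00000004554), Lum (ENSRNOG00000004610), Lox (ENSRNOG00000014426) and Vim (ENSRNOG00000018087). The pairing of identifier and symbol is that of the list, since the files carry identifiers only, and it was not checked against an annotation. For the same reason the markers of cardiomyocytes, endothelial cells, macrophages and other cell types were not used here, so the cell type on the labels was not checked.

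Ventricular cells came from the hearts of Wistar rats 1 to 2 days old, by trypsin and a Percoll gradient, and carry no genetic change that the labels name. Of the 4 groups of 3 libraries, PE IP is RNA precipitated with an antibody to Cpeb4 from cells kept for 24 h with phenylephrine (PE), which stimulates alpha-adrenergic receptors and makes cardiomyocytes grow, and PE input is total RNA of PE cells. Mock IP and mock input are the same 2 RNA pools from mock-treated cells. Cpeb4 is a cytoplasmic RNA-binding protein that acts on the poly(A) tail and translation of mRNAs. The comparisons ask whether matrix mRNAs are more or less abundant in the precipitate than in input, whether PE alters this, and whether PE alters their level in either pool. A precipitate made without the antibody was not analysed here. The labels do not say that replicates came from separate cultures, so every p-value measures the spread between these samples only, which may be technical.

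Cardiac fibroblasts deposit a matrix whose fibres are built from type I and type III collagen, bound to fibronectin and to small leucine-rich proteoglycans, and hardened by cross-links between collagen chains. Cardiomyocytes make little of it, while a preparation of neonatal heart cells usually carries some fibroblasts and endothelial cells along. Matrix genes of fibroblasts are known to respond to injury, to stretch and to adrenergic stimulation of the heart. In RNA from a whole culture, a change in the number of non-myocytes and a change in the matrix RNA of each such cell cannot be told apart.

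Library totals ran from 1423334 counts (mock input 3) to 30216559 counts (PE IP 1). Levels are given as CPM, counts scaled to a common total, on library sizes scaled by TMM, a factor that sets most genes near equality between libraries, and, where named, as CPM on the plain library total. The counts come from 3′ ends of transcripts and have no molecular identifiers, so floors cover counting error only. The intervals of log2 fold changes come from the fits and also include the spread between these libraries. Genes of moderate level, 20 to 50 CPM on average over the libraries of the same pool other than mock replicate 2 and PE replicate 1, were at 0 more often in some libraries: 6.96% of them in mock IP 2, 3.31% in mock input 2 and 2.76% in PE input 1, against at most 0.238% in each of the other 9 libraries. Results are therefore also given without the 4 libraries of both RNA pools in mock replicate 2 and PE replicate 1. Of these, PE IP 1 was not set apart by this measure, at 0.238%. As the 4 were also left out of the averages above, the measure is no independent test of them.

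In these data 9 of the 10 genes had enough counts to be tested, and in the fit of all 12 libraries on the TMM scale none of the 9 passed an adjusted p of 0.05 in any of the 5 comparisons. Col1a1 passed as higher in PE IP than in PE input in some of the other fits tried. The collagens Col1a1 and Col3a1 and the collagen-binding protein Sparc took a larger share of the raw counts in IP than in input under both treatments, on a scale where the median of all genes was itself higher in IP, by 1.27 (log2) in PE and 1.32 in mock cells. Lum was at 0 in every mock input and had counts in every PE input and PE IP library. PE input 2 had only 1 Lum count. A count of 0 in mock input 3 allows up to 4.04 TMM-scaled CPM, above the Lum level in PE input 2 and PE input 3.

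**Figure D1:**
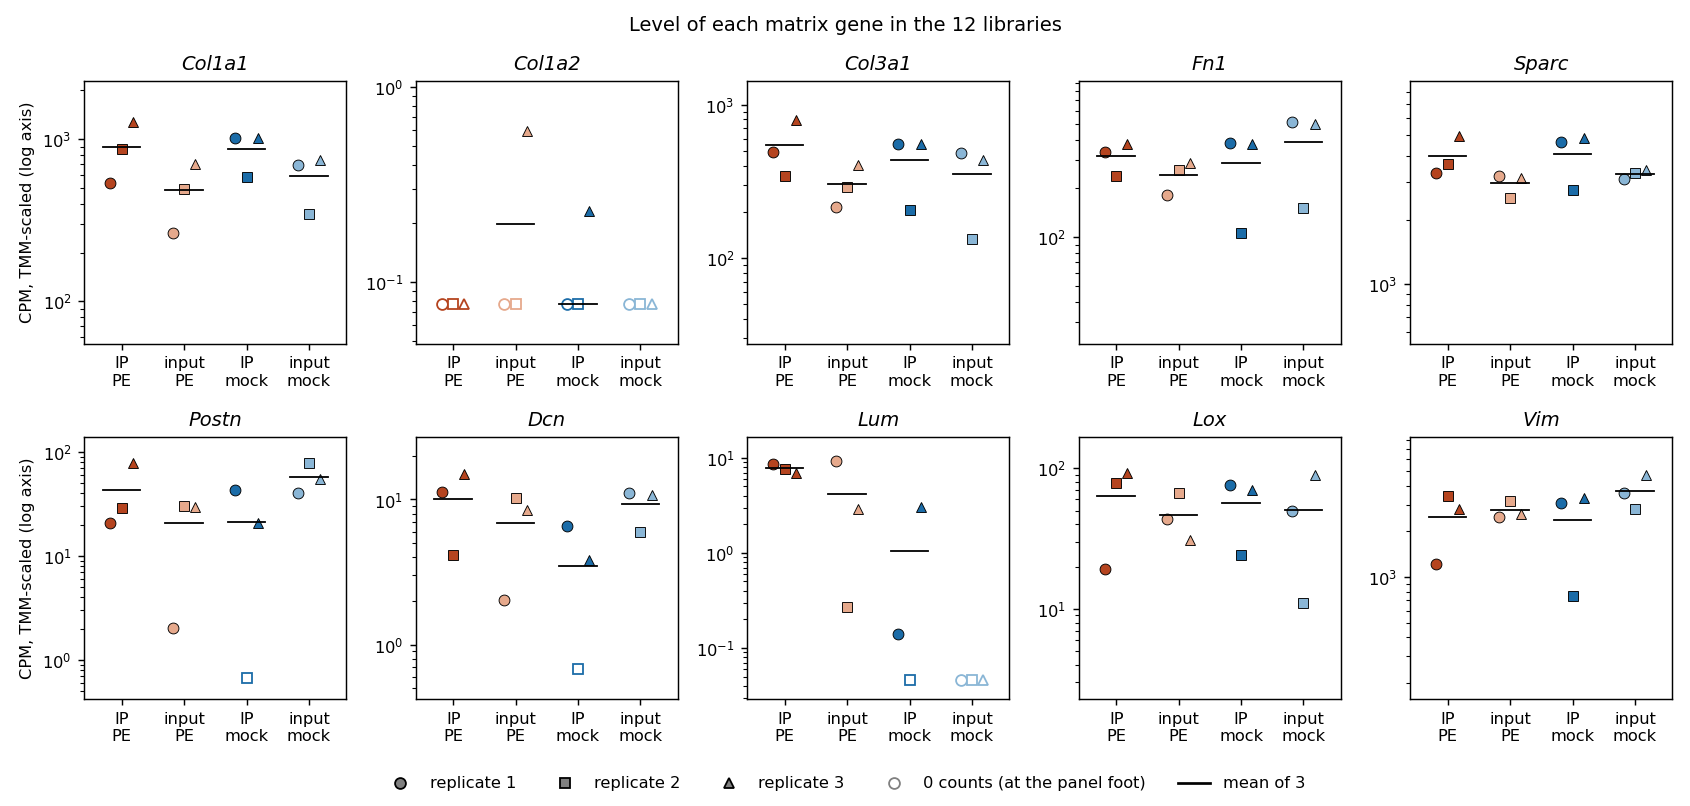
Level of each of the 10 matrix genes in TMM-scaled CPM (log axes, a separate range in each panel) in the 12 libraries, 3 per group, with the arithmetic mean of the group as a line and libraries of 0 counts as open symbols at the panel foot. Mock IP 2 is the lowest of the 12 libraries for Fn1 and Vim, and Lum has no counts in the 3 mock inputs.

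Type I collagen is a trimer of chains from Col1a1 and Col1a2, and Col3a1 encodes the chain of type III collagen. Col1a1 had 540.1, 871 and 1269 TMM-scaled CPM in the PE IP libraries 1, 2 and 3, against 264, 490.0 and 701 in PE input. Mock IP held 1017, 587.3 and 1019, against 696, 347 and 743 in mock input. The IP libraries reached higher than the inputs under both treatments, but the lowest IP value lay within the range of the inputs each time. Col3a1 stood at 493, 341 and 790.4 TMM-scaled CPM in PE IP and at 213, 291 and 402 in PE input. In mock cells it stood at 557, 206 and 551 in IP and at 484, 133 and 437 in input. The lowest values were in mock replicate 2 of both RNA pools, and IP and input overlapped in both treatments. Col1a2 had 0, 0 and 0 counts in PE IP, 0, 0 and 10 in PE input, 0, 0 and 5 in mock IP and 0, 0 and 0 in mock input. These 15 counts, against 103247 for Col1a1 over the same libraries, kept Col1a2 out of the tests. Whether so few counts reflect the RNA level, the identifier or its annotated 3′ end was not tested. A count of 0 allows up to 0.0629 TMM-scaled CPM in the deepest library and 4.04 in the shallowest.

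Fn1 encodes fibronectin, which links collagen fibres to integrins. Fn1 stood at 335, 239.6 and 377 TMM-scaled CPM in PE IP and at 181, 261 and 287 in PE input. In mock cells it stood at 381, 106 and 374 in IP and at 512, 151 and 498 in input. Mock replicate 2 was again lowest in both pools, and the groups overlapped. Sparc encodes a collagen-binding glycoprotein of the matrix, and its 6 inputs lay closest together. Sparc had 3334, 3651 and 4979.8 TMM-scaled CPM in the PE IP libraries 1, 2 and 3, against 3219.8, 2531 and 3152 in PE input. Mock IP held 4642, 2779.8 and 4846, against 3123, 3338 and 3426 in mock input. In PE cells every IP value was above every input value, whereas mock IP 2 lay below the 3 mock inputs. Postn encodes periostin, a matricellular protein of activated fibroblasts. Postn had 20.8, 29.2 and 78.2 TMM-scaled CPM in the PE IP libraries 1, 2 and 3, against 2.02, 30.5 and 29.4 in PE input. Mock IP held 43.5, 0 and 20.8, against 40.1, 77.9 and 55.2 in mock input. Every PE input lay below every mock input, and mock IP 2 had 0 counts of 17838962.

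Decorin (Dcn) and lumican (Lum) are small proteoglycans that bind collagen fibrils and govern their width. Dcn stood at 11.2, 4.14 and 15.1 TMM-scaled CPM in PE IP and at 2.02, 10.2 and 8.48 in PE input. In mock cells it stood at 6.53, 0 and 3.85 in IP and at 11.1, 5.94 and 10.8 in input. Mock IP 2 had 0 Dcn counts, PE input 1 had 10 counts of Dcn and 10 of Postn, and the groups overlapped. Lum had 412, 26 and 55 counts in PE IP, 46, 1 and 49 in PE input, 1, 0 and 65 in mock IP and 0, 0 and 0 in mock input. In TMM-scaled CPM these are 8.64, 7.68 and 6.85 in PE IP, 9.30, 0.270 and 2.93 in PE input, 0.139, 0 and 3.02 in mock IP and 0 in mock input. PE libraries thus lay above the mock libraries of the same pool, with 65 of the 66 mock counts in mock IP 3.

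Lox encodes lysyl oxidase, the enzyme that starts the cross-linking of collagen. Lox had 19.1, 78.6 and 93.2 TMM-scaled CPM in the PE IP libraries 1, 2 and 3, against 43.2, 66.6 and 30.6 in PE input. Mock IP held 75.9, 24.0 and 70.1, against 49.7, 10.96 and 90.2 in mock input. Its lowest level was in mock input 2 and its highest in PE IP 3, and all groups overlapped. Vim encodes vimentin, the intermediate filament protein of mesenchymal cells, endothelium included. Vim stood at 1221, 3403 and 2823 TMM-scaled CPM in PE IP and at 2497, 3150.2 and 2592 in PE input. In mock cells it stood at 3076, 751 and 3321 in IP and at 3574, 2798 and 4674 in input. PE IP 1 and mock IP 2 were the lowest of the 12 libraries, while the 6 inputs spanned 2497 to 4674 CPM.

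Sparc and Vim had the most counts of the 10 and Col1a2 the fewest, so the bases in front of these 3 genes are shown. RefSeq's table of promoter windows (GRCr8) held 5 of the 10 genes by symbol, namely Col1a2, Sparc, Postn, Lum and Vim. The windows are the 250 bases before the annotated start, written 5′ to 3′ on the gene's strand, at chr10:40038817-40039066 (- strand), chr17:81577011-81577260 (+ strand) and chr4:33518307-33518556 (+ strand). Capitals mark matches of 3 promoter motifs, the TATA box letters TATAAA, the letters CCAAT and the GC box letters GGGCGG, searched on both strands; none of the matches overlap. A match on the other strand appears as its reverse complement.
Sparc: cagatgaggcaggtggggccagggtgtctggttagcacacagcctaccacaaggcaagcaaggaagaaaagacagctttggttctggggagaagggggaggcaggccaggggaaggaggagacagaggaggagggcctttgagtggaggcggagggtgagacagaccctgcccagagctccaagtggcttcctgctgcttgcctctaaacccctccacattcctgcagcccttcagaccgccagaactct
Vim: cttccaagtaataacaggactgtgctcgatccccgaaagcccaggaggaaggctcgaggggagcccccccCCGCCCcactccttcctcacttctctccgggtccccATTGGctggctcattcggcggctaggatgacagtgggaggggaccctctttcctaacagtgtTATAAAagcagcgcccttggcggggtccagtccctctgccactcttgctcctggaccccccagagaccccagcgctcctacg
Col1a2: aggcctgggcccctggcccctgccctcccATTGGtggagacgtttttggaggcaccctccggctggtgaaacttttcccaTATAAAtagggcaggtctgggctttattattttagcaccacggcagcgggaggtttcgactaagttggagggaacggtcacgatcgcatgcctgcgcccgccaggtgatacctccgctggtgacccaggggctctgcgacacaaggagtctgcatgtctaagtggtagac
The Sparc window held none of the 3 motifs, the Vim window held all 3, and the Col1a2 window held TATAAA and, on the other strand, CCAAT. In Postn only TATAAA was found, and in Lum only CCAAT on the other strand. Of 33469 rat windows of this length 12.9% hold TATAAA, 34.0% CCAAT and 30.5% GGGCGG. These matches describe letters, and no measurement here bears on the use of these starts.

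On the TMM scale none of the 9 genes passed the test between precipitate and input in the fit of all 12 libraries. Log2 ratios below are the fitted log2 fold changes of IP over input. In PE cells Col1a1 averaged 893 ± 365 CPM in IP and 485 ± 219 in input (SD, n = 3 each), with a log2 ratio of 0.88 (SE 0.41, edgeR adjusted p = 0.418). Col3a1 averaged 541 ± 229 in IP and 302 ± 95 in input, with a log2 ratio of 0.84 (SE 0.49, edgeR adjusted p = 0.585). For Sparc the means were 3988 ± 873 in IP and 2968 ± 379 in input, and the log2 fold change was 0.43 (SE 0.27, edgeR adjusted p = 0.634). The collagens and Sparc thus had values above 0 in PE cells without passing the test. Fn1 (0.38), Postn (1.05), Dcn (0.56), Lum (0.89) and Lox (0.44) had log2 fold changes above 0 as well, with adjusted p from 0.921 to 0.983, and Vim had -0.15.

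In mock cells Col1a1 averaged 874 ± 249 CPM in IP and 595 ± 216 in input (SD, n = 3 each), with a log2 ratio of 0.56 (SE 0.41, edgeR adjusted p = 0.718). The log2 ratio of Col3a1 was 0.32 (SE 0.48, edgeR adjusted p = 0.946) and that of Sparc 0.31 (SE 0.27, edgeR adjusted p = 0.794). Fn1 and Vim had values of -0.43 and -0.63, which turn to 0.93 and 0.61 on library totals. Postn had a value of -1.44 (95% interval -4.58 to 1.70) and Dcn of -1.42 (-4.55 to 1.71), with 0 counts of both in mock IP 2. Lum had 66 counts in mock IP and none in mock input. Pooled, mock IP stood at 3.72-fold the level of 3 counts in all in mock input, a ratio that leaves out the spread between libraries. Of the 66 counts 65 lay in mock IP 3, and the test did not pass (edgeR adjusted p = 0.528).

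Of the 9 genes tested, 0 passed in PE cells and 0 in mock cells (edgeR, adjusted p under 0.05), where 2.11% of all 10491 genes passed in PE cells and 0.743% in mock cells. At an unadjusted edgeR p under 0.05 there was 1 gene in PE cells, Col1a1 (0.0481), and none in mock cells, and limma voom passed 0 in either. The DESeq2 Wald test also passed 0, but gave no adjusted p to Lum in PE cells or to Dcn and Lum in mock cells. The median log2 fold change was 0.56 over the 9 genes in PE cells and 0.20 in mock cells, beside 0.18 and 0.11 over all genes tested. With Lum set to its ratio over 3 counts in mock input, the mock median stayed 0.20. Single libraries moved these medians: in PE cells to 0.24 without PE IP 3 and 0.89 without PE IP 2, and in mock cells to -0.29 without mock input 2, -0.069 without mock IP 1, 0.015 without mock IP 3, 0.34 without mock input 3 and 0.53 without mock IP 2. IP and input values did not overlap, IP higher, for 1 of the 9 in PE cells (Sparc) and for 0 in mock cells, beside 12.9% and 9.96% of all genes. Without both RNA pools of mock replicate 2 and PE replicate 1, 1 of the 9 passed in PE cells, namely Col1a1 at a log2 fold change of 0.81 (edgeR adjusted p = 0.0432), beside 9.32% of all genes in that fit. In PE cells that fit held only replicates 2 and 3 of each pool. The value of Col1a1 was no larger there than in the fit of all 12 libraries (0.88).

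The 2 most abundant genes of the group, Sparc and Vim, ranked 34 and 44 among the genes tested by mean TMM-scaled CPM of 3′ end counts over the 12 libraries. Of the 50 genes highest by that mean, 44 had less in IP than in input (log2 fold change below 0) in PE cells and 46 in mock cells, with medians of -1.70 and -0.97. Sparc was above 0 in both treatments (0.43 in PE and 0.31 in mock cells) and Vim below 0 in both (-0.15 and -0.63). On library totals both genes were above 0 in both treatments, where the median of all genes was 1.27 in PE and 1.32 in mock cells. Sparc lay above that median (1.49 in PE and 1.48 in mock cells) and Vim below it (0.92 and 0.61).

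**Figure D2:**
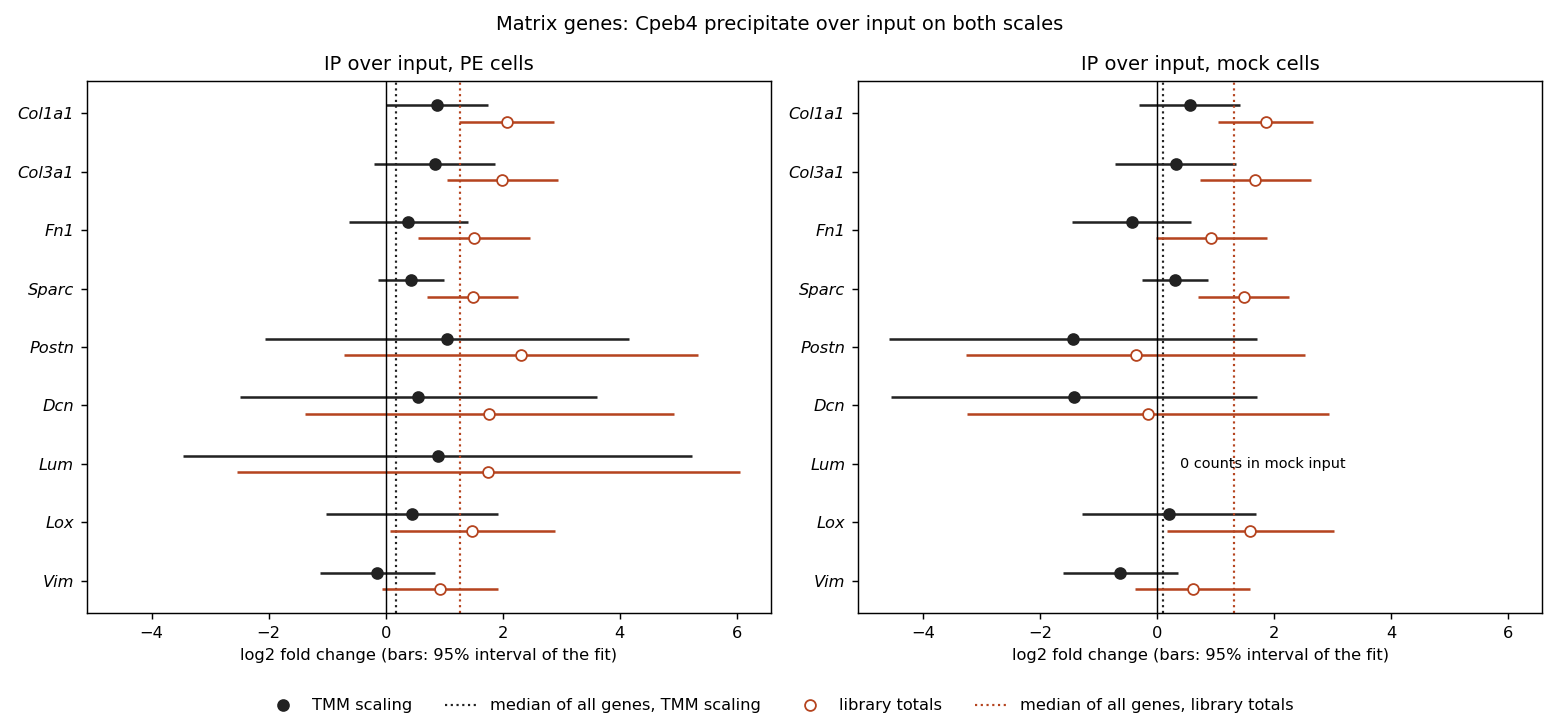
Log2 fold change of IP over input for the 9 genes tested, in PE cells (left) and mock cells (right), on TMM scaling (filled) and library totals (open), with 95% intervals of the edgeR fit. Dotted lines mark the median of all genes on each scale; the open points move to the right together with that median, which is 0.18 on TMM scaling and 1.27 on library totals in PE cells, and 0.11 and 1.32 in mock cells, and Lum is left out in mock cells, where input has 0 counts.

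On plain library totals, which ask what share of a library's counts each gene took, both collagens and Sparc were higher in IP under both treatments. Col1a1 took 853, 1326 and 2015 CPM of the library total in PE IP, against 252, 354 and 397 in PE input, and 1455, 856 and 1421 in mock IP, against 339.7, 305 and 388 in mock input. Col3a1 took 778, 518 and 1256 in PE IP, against 204, 210.1 and 228 in PE input, and 797, 299.8 and 768 in mock IP, against 237, 117 and 228 in mock input. Sparc took 5263, 5557 and 7911 in PE IP, against 3084, 1828 and 1787 in PE input, and 6642, 4051 and 6758 in mock IP, against 1525, 2934 and 1789 in mock input. Every IP library lay above every input library of its treatment for these 3 genes. The same held for 37.3% of all genes in PE cells and 33.0% in mock cells.

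The log2 fold changes on library totals were 2.07 (SE 0.39, edgeR adjusted p = 0.00834) for Col1a1, 1.99 (SE 0.45, edgeR adjusted p = 0.0202) for Col3a1 and 1.49 (SE 0.37, edgeR adjusted p = 0.0271) for Sparc in PE cells. In mock cells they were 1.86 (SE 0.39, edgeR adjusted p = 0.0153), 1.68 (SE 0.45, edgeR adjusted p = 0.0334) and 1.48 (SE 0.37, edgeR adjusted p = 0.0266) in the same order. These 3 of the 9 genes passed as higher in each treatment, beside 6.11% of all genes in PE and 8.03% in mock cells. Non-overlap with IP higher held for 6 of 9 in PE cells (Col1a1, Col3a1, Fn1, Sparc, Postn and Lum) and 3 of 9 in mock cells, beside 37.3% and 33.0% of all genes. The median of all genes was itself 1.27 in PE and 1.32 in mock cells on this scale. Leaving out 1 library gave 0 to 4 genes in PE cells, with 0 without PE input 2 or PE input 3 and 1 without PE IP 3. In mock cells it gave 0 to 3, with 0 without mock input 1 or mock input 3 and 1 without mock IP 1 or mock IP 3. Over all 10491 genes, leaving out 1 library gave 23 to 1113 higher in IP in PE cells and 0 to 1930 in mock cells. Leaving out both RNA pools of mock replicate 2 and PE replicate 1 gave 7 in PE and 6 in mock cells. Beside these, 3123 and 3928 of all 10491 genes passed as higher in IP.

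Summed, the 10 genes held 1.30% ± 0.356 of raw counts in PE IP and 0.506% ± 0.104 in PE input (SD, n = 3 each). They held 1.16% ± 0.441 in mock IP and 0.512% ± 0.0944 in mock input. On the TMM scale the sums were 8347 ± 2238 CPM in PE IP and 6823 ± 387 in PE input, and 8153 ± 3211 in mock IP and 8428 ± 1538 in mock input. The share of raw counts did not overlap between IP and input in either treatment, and the TMM-scaled sum overlapped in both. Sparc and Vim make up most of each sum, so it follows these 2 genes.

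**Figure D3:**
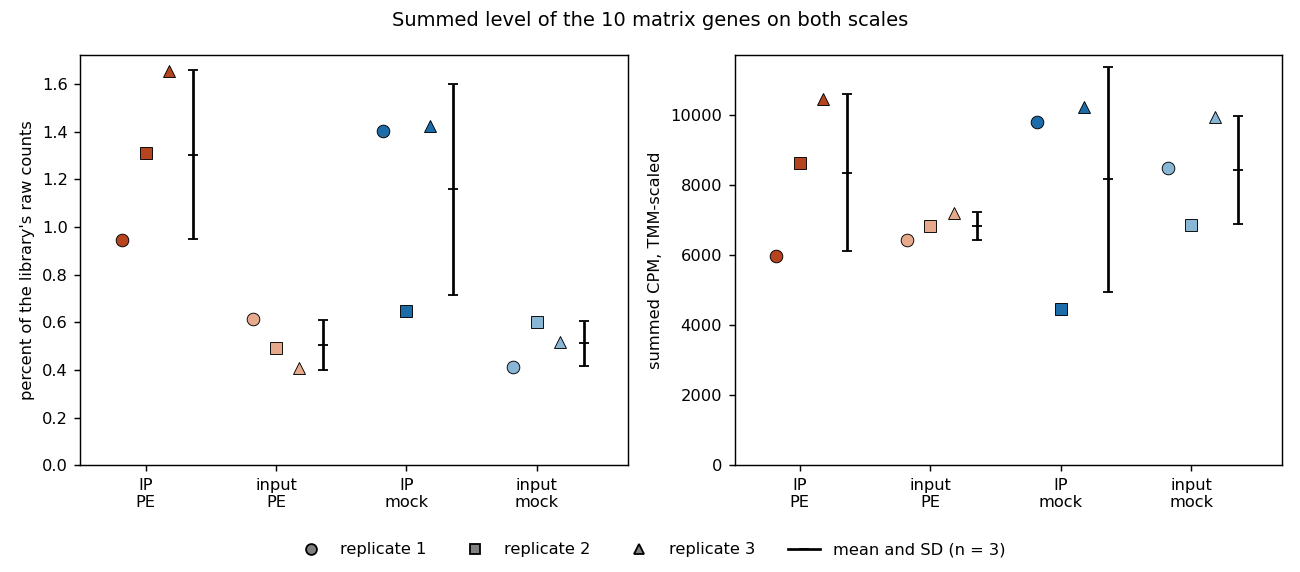
Summed level of the 10 genes in each library as percent of raw counts (left) and as TMM-scaled CPM (right), 3 libraries per group, with mean and SD beside the points. IP lies above input in the left panel, where IP libraries hold 0.649% to 1.66% and inputs 0.409% to 0.616%, while IP and input share a range in the right panel. On the scale of the left panel the median of all genes was also higher in IP, by 1.27 (log2) in PE and 1.32 in mock cells.

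Whether PE moves the enrichment of matrix mRNAs in the precipitate was tested as the difference of the PE and mock contrasts. Of the 9 genes 0 passed (edgeR, every adjusted p 1.00), as did 0% of all genes, and 0 of the 9 had an unadjusted p under 0.05 or passed by DESeq2 or limma voom. Differences on the log2 scale were 0.32 (95% interval -0.90 to 1.55) for Col1a1, 0.52 (-0.93 to 1.98) for Col3a1 and 0.81 (-0.62 to 2.25) for Fn1. Sparc had the narrowest interval, at 0.11 (-0.68 to 0.91). Postn and Dcn had differences of 2.49 and 1.98 with intervals that spanned 0 by over a unit to each side. Over the 9 genes, the fitted value of Lum included, the median was 0.48, beside -0.013 over all genes. It was 0.11 without mock IP 2, 0.15 without PE IP 3, 0.23 without mock input 1, 0.27 without mock input 3, 0.32 without PE input 1 and 0.34 without PE IP 2. Without any one of the other libraries it ran from 0.58 (PE input 2) to 0.74 (mock input 2). The value of Lum itself is not given here, since mock input has 0 counts and the fitted value is no measure of size.

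Between PE and mock inputs, the log2 fold changes of Col1a1, Col3a1 and Sparc were each smaller in size than their SE. The log2 fold change of PE over mock input was -0.29 (SE 0.41, edgeR adjusted p = 1.00) for Col1a1 and -0.22 (SE 0.48, edgeR adjusted p = 1.00) for Col3a1. Sparc averaged 2968 ± 379 CPM in PE input and 3295 ± 156 in mock input (SD, n = 3 each), a log2 ratio of -0.15 (SE 0.27, edgeR adjusted p = 1.00) and a 95% interval of -0.71 to 0.41. On library totals Col3a1 and Sparc turned to 0.14 and 0.10. Postn averaged 20.6 ± 16.1 CPM in PE input and 57.7 ± 19.0 in mock input, a log2 ratio of -1.48 (SE 1.44, edgeR adjusted p = 1.00), and PE input 1 had 10 counts. Without both RNA pools of mock replicate 2 and PE replicate 1 the Postn ranges were 29.4 to 30.5 CPM in PE input and 40.1 to 55.2 in mock input.

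On the TMM scale Lum was the only one of the 9 with a log2 fold change above 0 in the inputs; on library totals Col3a1, Sparc and Lox were above 0 too. Lum had 96 counts in PE input, against 0 in mock input. Pooled, the PE inputs stood at 11.7-fold the level of 3 counts in all in the mock inputs, and at 7.55-fold to 16.8-fold with 1 PE input left out. These ratios allow for counting error in mock input only and leave out the spread between libraries. The unadjusted p was 0.0271 and the adjusted p 1.00 (edgeR). By the other tools, limma voom did not pass it, and DESeq2 gave it no adjusted p. PE input 2 had a single Lum count, below its own floor of 0.809 CPM, and the floor of mock input 3 was 4.04 CPM, above the level in PE input 2 and PE input 3, so at this depth those levels could not have been told from 0 in that library.

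Between the precipitates of PE and mock cells, Lum averaged 7.72 ± 0.894 CPM in PE IP and 1.05 ± 1.70 in mock IP (SD, n = 3 each), and the log2 ratio was 2.85 (SE 2.15, edgeR adjusted p = 1.00). Every PE IP library lay above every mock IP library. The log2 ratio of Dcn was 1.56 (SE 1.47, edgeR adjusted p = 1.00) and that of Postn 1.00 (SE 1.41, edgeR adjusted p = 1.00), and both had 0 counts in mock IP 2. Values for Col1a1 (0.031), Col3a1 (0.31), Fn1 (0.15), Lox (0.17) and Vim (0.059) lay near 0, and that of Sparc was -0.036, which was 0.10 on library totals.

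In all, 0 of the 9 genes passed between PE and mock in the precipitates and 0 in the inputs (edgeR, adjusted p under 0.05), where 0.00953% of all genes, 1 of 10491, passed in each. At an unadjusted p under 0.05 there was Lum in the inputs and none in the precipitates. The groups did not overlap for 1 of 9 in the precipitates (Lum, PE higher), beside 14.9% of all genes, and for 2 of 9 in the inputs (Lum higher, Postn lower in PE), beside 9.85%. On library totals the Postn values overlapped, at 1.94, 22.0 and 16.7 CPM in PE input and 19.6, 68.5 and 28.8 in mock input. The median log2 fold change was 0.17 in the precipitates and -0.29 in the inputs, beside 0.12 and 0.064 over all genes. In the precipitates it was -0.19 without mock IP 2, -0.043 without PE IP 3, 0.31 to 0.43 without any one of the other 4 IP libraries, 0.056 without both pools of mock replicate 2 and PE replicate 1, and -0.073 by limma voom, so its sign rests on single libraries. In the inputs it was -0.014 without PE input 1, -0.12 without mock input 3, -0.19 without mock input 1, -0.48 without PE input 3 and -0.59 without mock input 2, and -0.041 on library totals.

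**Figure D4:**
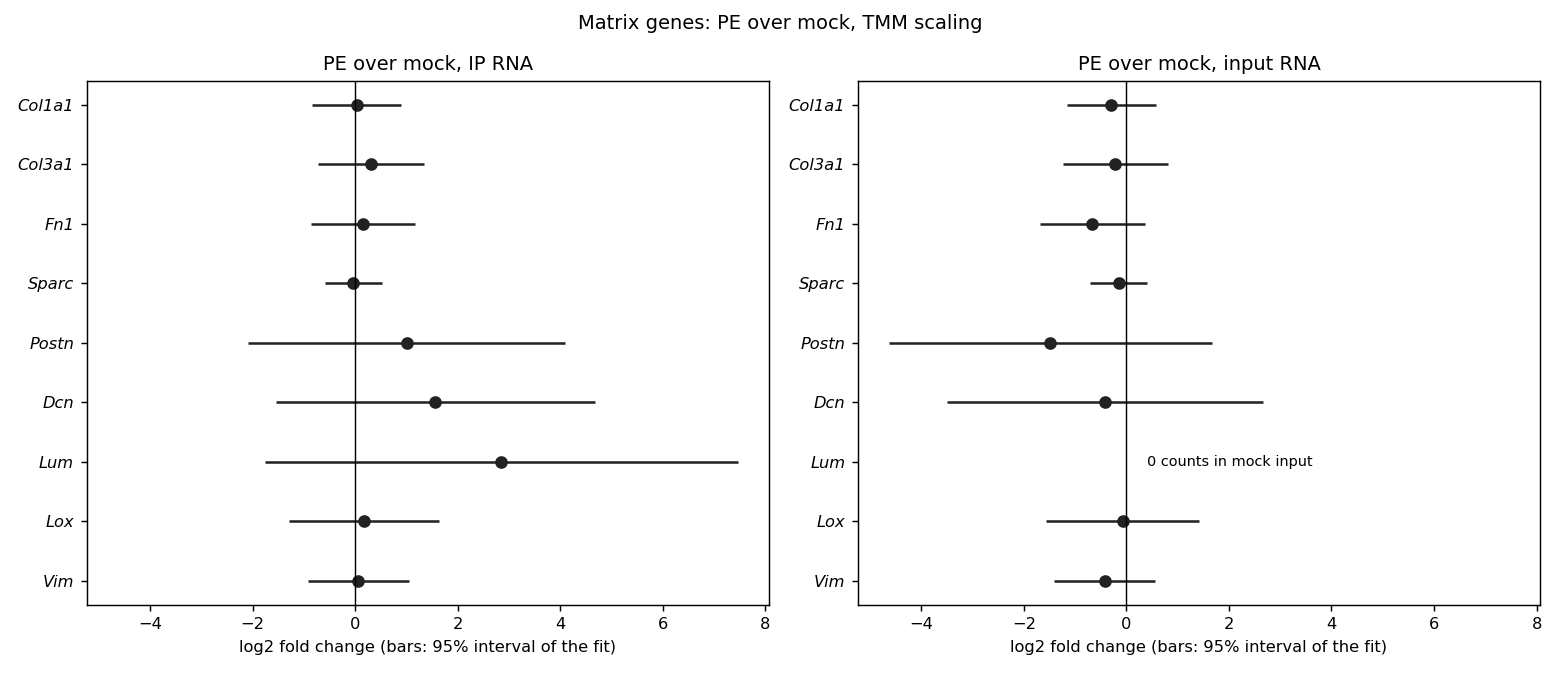
Log2 fold change of PE over mock for the 9 genes tested, in the precipitates (left) and in the inputs (right), on TMM scaling, with 95% intervals of the edgeR fit. All intervals shown cover 0, the widest are those of Postn, Dcn and Lum, and Lum is left out of the inputs because mock input has 0 counts.

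Across the 12 libraries the likeness between the levels of these genes ranged widely. Pearson's r of log2(CPM + 0.5) had a median of 0.43 over the 36 pairs of the 9 genes, with 34 above 0, and a median of 0.24 with 25 above 0 in the 8 libraries outside mock replicate 2 and PE replicate 1. The highest r over 12 libraries was 0.90 between Postn and Dcn (0.77 in the 8). Col3a1 had an r of 0.84 with Fn1 (0.56 in the 8) and of 0.82 with Col1a1 (0.85 in the 8). Col1a1 and Sparc had an r of 0.68 over the 12 libraries, 0.97 in the 8 and 0.00078 in the 6 inputs. Lum had an r of 0.054 with Col1a1 (0.52 in the 8), 0.32 with Sparc (0.43 in the 8) and -0.083 with Vim (-0.51 in the 8). Points share library, depth and scaling, and these values are descriptions. Among the 5858 genes outside the list with at least 10 CPM on average, the 2 most like Col1a1 were ENSRNOG00000014079 (r = 0.94) and ENSRNOG00000008393 (r = 0.93). Of these 5858 genes 0.734% were more like Col1a1 than Col3a1 was. That share was 5.63% for Sparc, 7.89% for Lox, 11.1% for Fn1, 24.7% for Postn, 32.1% for Dcn, 35.0% for Vim and 52.1% for Lum. Dcn and Lum themselves averaged 7.45 and 3.23 CPM, below the cut of 10.

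**Figure D5:**
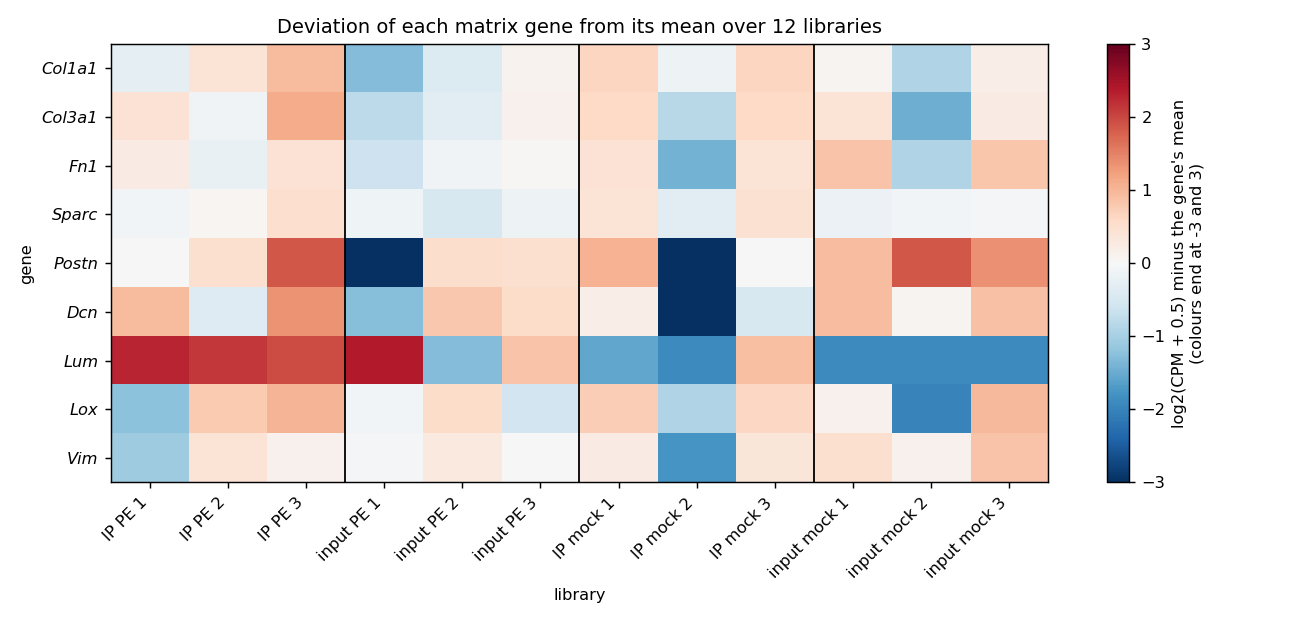
Deviation of log2(CPM + 0.5) of each of the 9 genes (rows) from its mean over the 12 libraries (columns), with colours ending at -3 and 3. Mock IP 2 is below the mean in all 9 genes, and Lum is below it in PE input 2 and in mock libraries other than mock IP 3.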

How the data were processed

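The values are raw gene counts, deposited by the authors in 1 table of 12 libraries, with Ensembl rat identifiers and no normalization. Per the submitters' processing notes the tools were cutadapt 2.5, STAR 2.7, featureCounts 1.6.4 and DESeq2 on the build Rnor_6.0; their options are not stated there. Libraries were made with a 3′ end kit from 200 ng of RNA, per the labels' protocols. The 32883 blank lines of the table were skipped.

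edgeR 4.0.16 (R 4.3.3) fitted 4 group means to all 12 libraries, with TMM factors, filterByExpr (10491 genes, with 99.6% or more of the counts in every library), robust quasi-likelihood dispersions and Benjamini-Hochberg adjustment over all genes tested. Only rows of the 10 genes are reported. Those genes and the gene lists were chosen with earlier results of these data known. The genes named are the 10 and the 2 genes whose levels were most like Col1a1. Alternatives were DESeq2 1.42.0 size factors and Wald test, library totals, no filter, limma 3.58.1 voom with quality weights, fits of 6 libraries, a replicate block, and libraries left out. No 2 libraries of a group agreed within counting noise (lowest chi-square per degree of freedom 7.79), so none was merged as a duplicate deposit; this does not show separate cultures. The steps were tested on simulated data. SE is the size of a log2 fold change over the square root of F.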

Additional observations from a re-analysis of the deposited data

How the results depend on the processing

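On the TMM scale 0 of 9 genes passed in each comparison under DESeq2 size factors, limma voom and each library left out (edgeR unless named), and 0 of 10 with no filter. Fits of 6 libraries, made for the 4 pairwise comparisons, passed 0. The DESeq2 Wald test passed 0 of the genes it gave an adjusted p, which Lum lacked for IP over input in PE cells, and Dcn and Lum for IP over input in mock cells and PE over mock in input. Calls arose for IP over input in PE cells, with 1 gene, Col1a1, without both RNA pools of mock replicate 2 and PE replicate 1, and 1 gene, also Col1a1, with a replicate block (log2 fold change 0.91, edgeR adjusted p = 0.0353, where 128 genes were higher and 293 lower of 10491). On library totals IP over input gave 3 genes in PE and 3 in mock cells. Combined with library totals, choices made after seeing the data gave 7 in PE and 6 in mock cells without those libraries, 4 and 3 with the replicate block, and 0 to 4 and 0 to 3 with 1 library left out. In the same fits 3123 and 3928 of all 10491 genes passed as higher without those libraries, and 997 and 1520 with the block. With 1 library left out, 23 to 1113 and 0 to 1930 of all genes passed as higher. The summed level as a share of raw counts was 1.30% in PE IP, 0.506% in PE input, 1.16% in mock IP and 0.512% in mock input.

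The values that turned sign had not passed in the fit as reported on the TMM scale; among them Col3a1 in mock cells passes on library totals. On library totals IP over input was 0.92 for Vim in PE cells, and 0.93 for Fn1 and 0.61 for Vim in mock cells. The change with PE was -0.11 for Lox, and PE over mock was 0.14, 0.10 and 0.42 for Col3a1, Sparc and Lox in input and 0.10 for Sparc in IP. Sparc in IP was 0.021 with DESeq2 size factors and 0.021 with the Wald test. The replicate block gave -0.23 for the change of Lox, 0.17 for Lox in input and -0.0062 for Col1a1 in IP, and the 6 IP libraries alone gave -0.0098 for Col1a1. Voom gave 1.95 for the change of Lum, where the fit as reported had -5.84, neither of them a measure of size because mock input has 0 counts, and, for PE over mock in IP, -0.073 for Col1a1, -0.10 for Col3a1, -0.28 for Fn1, -0.050 for Lox and -0.14 for Vim. Without mock replicate 2 and PE replicate 1, IP over input of Vim in PE cells was 0.085, and PE over mock in IP was -0.31 for Fn1 and -0.045 for Vim. With 1 library left out, ranges that crossed 0 were Vim -0.44 to 0.18 for IP over input in PE cells; Col3a1 -0.075 to 0.66, Lox -0.29 to 0.90 in mock cells; Col1a1 -0.015 to 0.69, Sparc -0.099 to 0.26, Lox -0.46 to 0.74 for the change; Col1a1 -0.66 to 0.0072, Col3a1 -0.61 to 0.093, Dcn -0.80 to 0.025, Lox -0.57 to 0.62 for PE over mock input; and Col1a1 -0.31 to 0.29, Col3a1 -0.071 to 0.55, Fn1 -0.25 to 0.41, Sparc -0.25 to 0.10, Lox -0.22 to 0.60, Vim -0.37 to 0.39 for PE over mock IP. The cause was not tested.

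Replicate numbers are not stated to pair samples. Deviations of IP and input with the same number correlated at 0.016 to 0.34, with 5 of 6 pairs over 0.1, and 9 of 12 libraries correlated best with their own number, a hint from the data only; between PE and mock they ran from -0.35 to 0.26. The spread limits detection: the common biological coefficient of variation was 1.00, and 0.627 without both RNA pools of mock replicate 2 and PE replicate 1. Low counts limit Lum, Dcn and Postn, and groups of 3 cannot reach an exact permutation p under 0.1.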
